A study of Hordeum vulgare with 12 samples.

Results

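Proteolysis and protein homeostasis genes of barley were followed in the stem base, the short segment from which crown roots emerge, in 12 RNA-seq libraries. The genes were those of the readable rows of the study's list of genes higher in the wild type at 10 days after germination (10DAG) whose first functional category, or BIN, of the MapMan ontology is protein homeostasis. They numbered 110 of the 26073 identifiers in the count files and 110 of the 1342 readable annotated genes of that list. The study had put a gene on the list when its wild-type level at 10DAG was higher by at least 1 on the log2 scale, so the direction of the wild-type age difference was fixed by the choice and the libraries of the AtCKX1 plants were not used in it. By their categories the 110 genes comprised 51 of the N-degron and ubiquitin pathways, 7 of autophagy, 41 peptidases and 11 protease inhibitors.

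Ubiquitin is a small protein that a relay of activating, conjugating (E2) and ligating (E3) enzymes attaches to other proteins, and chains of it mark a protein for the proteasome. The E3 ligase recognizes the substrate, and plants carry large families of them with RING, RING-H2, U-box or F-box domains. Autophagy encloses cytoplasm in a membrane and delivers it to the vacuole, where many of the peptidases named here are active, while small inhibitor proteins such as the Bowman-Birk inhibitors, the serpins and the chymotrypsin inhibitors of barley grain block such enzymes.

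The samples were stem bases of wild-type cv. Golden Promise (WT) and of barley overexpressing AtCKX1, a cytokinin dehydrogenase gene of Arabidopsis whose product breaks cytokinins down. Both genotypes were sampled at 1 day after germination (1DAG) and at 10DAG, with 3 libraries in each of the 4 groups. By the study's methods, which describe the WT only, a sample was a pool of 5 seedlings and the 3 replicates were independent. For the AtCKX1 libraries the study describes neither the pooling nor the independence of the replicates. The promoter of the transgene and the number of lines or transformation events are not given in the sources used here, so the AtCKX1 plants may be 1 line. All grains germinated on wet filter paper under long days and the older seedlings were grown in hydroponics. The study's methods give a longer segment at 10DAG and the labels 1 length for all samples, so that age, medium and, where it changed, segment length cannot be told apart in any comparison of ages. The values are raw read counts per gene, with 36100002 to 51997655 reads assigned to genes per library (median 42479783). The transgene itself had 0 reads in all 6 WT libraries, 16, 11 and 18 in the AtCKX1 libraries at 1DAG and 42, 7 and 12 at 10DAG. Earlier results that are not shown here singled out WT 1DAG replicate 1 and WT 10DAG replicate 2, and counts without them are given beside the main results they touch. WT 1DAG replicate 1 was the lowest of its group for 46.6% of all genes tested. For WT 10DAG replicate 2 this share was 35.4%, which does not set it apart from its group. Levels are given as CPM, the counts scaled by TMM library sizes to a common total, in the order of replicates 1, 2 and 3. Calls rest on edgeR's quasi-likelihood test of 20212 genes, with p-values adjusted over all of them (Benjamini-Hochberg), and required an adjusted p no greater than 0.05 together with a change of 1 or more on the log2 scale. SE stands for the standard error of a log2 value. Since RNA came from whole segments, fewer cells of a type and less RNA per cell cannot be told apart.

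Of the 110 genes 109 passed edgeR's filter on low counts, and the aspartyl protease gene MLOC_697 did not. In the WT the 109 had log2 fold changes of 1.02 to 7.37 between 1DAG and 10DAG (median 1.90), which describes the choice of the genes and is not tested here. All 109 were called higher, against 15.5% of all genes tested, the libraries of both ages stood apart without overlap for 106, against 28.2%, and nothing is read from these shares. The genes nearest to the limit of the choice were the RING-H2 ligase gene MLOC_25947 at 1.02, the RING-HC ligase gene MLOC_52523 at 1.06 and the RING-H2 ligase gene MLOC_43911 at 1.06 on the log2 scale. Protein homeostasis genes just outside that limit were not used here, because the functional categories were read only for genes on the list. The summed CPM of all 110 genes was 3260.4, 3751 and 5237 in the WT at 1DAG and 16467, 14812 and 20714 at 10DAG. In the AtCKX1 plants it was 4636, 4759.5 and 5719 at 1DAG and 18074, 15013 and 17781 at 10DAG. At each age the sums of the genotypes overlapped, and the sums of the ages did not.

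In the AtCKX1 plants, whose libraries had no part in the choice, most of these genes were also higher at 10DAG than at 1DAG. Of the 109 genes tested, 88 were higher (80.7%), while 15.8% of all genes tested were higher. None was lower, by edgeR or by DESeq2, while 12.2% of all genes tested were, and no gene had a negative estimate, so that 0 were lower at an unadjusted p under 0.05 as well, where 101 were higher, against 28.7% of all genes tested. The median log2 fold change was 1.66 over the 109 genes and -0.01 over all genes tested. The whole readable list, from which the genes were taken, had 1023 of 1334 tested genes higher in the AtCKX1 plants (76.7%) and a median of 1.5. The share of protein homeostasis genes was thus far above the background of all genes and near that of the readable list as a whole. The counts by role given below stand against the same shares, 15.8% of all genes tested and 76.7% of the readable list. For 102 of the 109 genes every AtCKX1 library at 10DAG lay above every one at 1DAG, against 34.1% of all genes tested. Of the 21 genes not called, 11 passed the adjusted p at a fold change under the limit and 10 had an adjusted p above 0.05. Tested against a 2-fold change itself (glmTreat), 53 genes were higher, against 1545 of all 20212 genes tested. Leaving out 1 library at a time gave 77 to 90 higher genes.

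**Figure D1:**
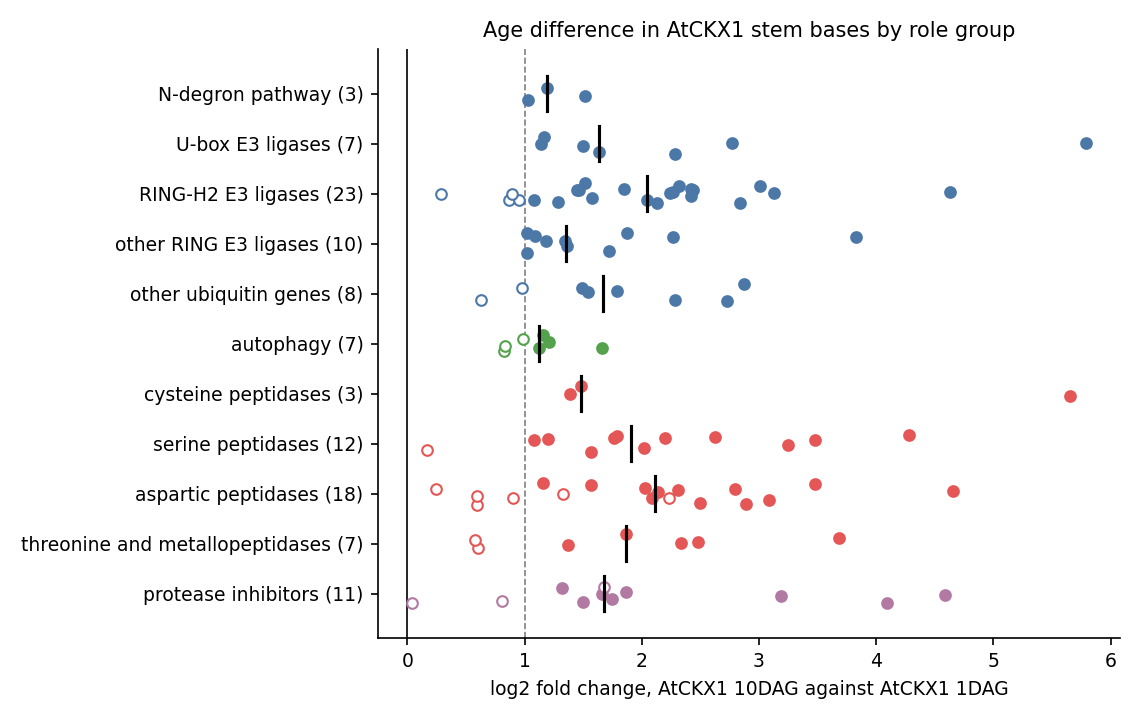
Log2 fold change between AtCKX1 10DAG and AtCKX1 1DAG (horizontal axis) for the 109 tested genes, grouped by role with the number of genes in parentheses. Filled points are genes called higher, open points genes not called, black bars the group medians and the dashed line the fold limit of 1. All points lie above 0, and 88 of 109 are filled.

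The same list held 12 photosynthesis genes, whose direction in the WT was fixed by the choice as well. The study's enrichment places the photosynthesis category among the genes lower at 10DAG, so these 12 do not stand for green tissue as a whole. It places a protein homeostasis category there too, and none among the genes higher at 10DAG. The protein homeostasis genes followed here, taken from the list of higher genes, therefore do not stand for that category as a whole either. The 12 photosynthesis genes summed to 194 to 223 CPM in the AtCKX1 libraries at 1DAG and to 1218.5 to 1308 CPM at 10DAG. In AtCKX1 9 of the 12 were called higher (75%), against 76.7% of the readable list. In the WT their sums were 168.5 to 290.0 CPM at 1DAG and 881 to 1055 CPM at 10DAG. Their part in the age differences of the protein homeostasis genes was not tested.

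All 3 genes of the N-degron pathway, in which the first residue of a protein decides its stability, were higher in AtCKX1 stem bases at 10DAG. MLOC_55623, a gene for an E3 ligase of the PRT6 type that recognizes basic first residues, was at 84.6, 83.6 and 96.8 CPM in AtCKX1 at 1DAG and at 251, 254 and 251 CPM at 10DAG. The AtCKX1 libraries of each age lay close together and those of the ages far apart, with a log2 fold change of 1.51 (SE 0.15, adjusted p = 1.76e-05). In the WT the same gene was at 67.2, 71.5 and 91.2 CPM at 1DAG and 218, 206 and 296 CPM at 10DAG. The other members were the genes for plant cysteine oxidases MLOC_37762 and MLOC_70613, enzymes that in Arabidopsis oxidize a first cysteine and so feed proteins into the PRT6 branch when oxygen is present. Their log2 fold changes in AtCKX1 were 1.19 and 1.03.

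The 7 U-box E3 ligase genes were also all higher at 10DAG in AtCKX1, with a median log2 fold change of 1.64. MLOC_77066, with the largest change of the 109 genes, was at 0.0472, 0.0215 and 0.146 CPM at 1DAG and 3.54, 2.15 and 6.39 CPM at 10DAG, a log2 fold change of 5.79 (SE 1.23, adjusted p = 0.00221). Its WT libraries were at 0, 0.0973 and 0.177 CPM at 1DAG and at 2.41, 36.8 and 5.32 CPM at 10DAG. Replicate 2 of the WT at 10DAG thus stood far above every other library, and the AtCKX1 libraries did not overlap between the ages. MLOC_74185 was at 6.16, 3.62 and 4.30 CPM in AtCKX1 at 1DAG and 31.6, 26.3 and 38.0 CPM at 10DAG, a log2 fold change of 2.77 (SE 0.39, adjusted p = 0.000143). In the WT it lay at 6.08 to 18.7 CPM at 1DAG, where replicate 1 was the highest, and at 30.9 to 44.6 CPM at 10DAG. The remaining 5 genes changed by 1.14 to 2.28 in AtCKX1 on the log2 scale.

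RING-H2 ligases, whose RING domain carries an additional histidine among its zinc-binding residues, made up the largest group of ubiquitin genes. In AtCKX1 19 of 23 were higher at 10DAG, with a median log2 fold change of 2.05. MLOC_62519, of the CTL subclass, rose from 1.53, 1.06 and 1.55 CPM to 35.7, 30.8 and 36.0 CPM, by 4.63 (SE 0.23, adjusted p = 7.29e-07) on the log2 scale. The genotypes overlapped at 10DAG, where the WT libraries were at 35.4, 27.0 and 34.7 CPM, and at 1DAG every WT library was above every AtCKX1 library, at 2.21, 1.58 and 2.59 CPM. The other CTL genes, MLOC_54929 and MLOC_5336, changed by 2.24 and 1.47. MLOC_5336 was at 41.9, 45.2 and 43.0 CPM in AtCKX1 at 1DAG and 123, 111 and 125 CPM at 10DAG (adjusted p = 0.0011), and every AtCKX1 library at 10DAG lay above every WT library of that age, which were at 67.1, 65.2 and 97.7 CPM. Its difference between the genotypes at 10DAG was 0.64 (SE 0.27, adjusted p = 0.328) on the log2 scale and did not pass the test.

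The ATL subclass, membrane-anchored RING-H2 ligases first described in Arabidopsis, held 17 of these genes, and 15 were higher in AtCKX1 at 10DAG. Several were read at low depth: MLOC_13537 was at 0.0236, 0.0646 and 0.0486 CPM at 1DAG and 0.471, 0.259 and 0.552 CPM at 10DAG, a log2 fold change of 3.13 (SE 0.89, adjusted p = 0.0114). MLOC_18726 changed by 3.01 (SE 0.51, adjusted p = 0.000466) and MLOC_6006 by 2.44 (SE 0.22, adjusted p = 7.58e-06). At higher counts, MLOC_17532 was at 18.7, 14.9 and 19.2 CPM and 41.0, 34.5 and 35.9 CPM in AtCKX1 at the younger and older age, a log2 fold change of 1.08. Among the ATL genes the exceptions were MLOC_72185, at 0.87 with an adjusted p of 0.024, and MLOC_2019, taken up with the genotypes. Both genes for RIE1, a RING-H2 ligase needed in the Arabidopsis embryo, stayed under the fold limit although they passed the adjusted p. MLOC_25947 was at 0.95 and MLOC_54489 at 0.89 on the log2 scale. The ATL genes are a family of similar sequences, and reads from near-identical copies could not be checked here.

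All 10 genes for other RING ligases were higher at 10DAG in AtCKX1, with a median log2 fold change of 1.35. The RING-HC ligase genes MLOC_63698 and MLOC_14153 are described as copines, calcium-dependent proteins that bind phospholipids. MLOC_63698 was at 1.16, 0.539 and 0.777 CPM in AtCKX1 at 1DAG and 14.8, 8.82 and 11.4 CPM at 10DAG, a change of 3.83 (SE 0.48, adjusted p = 6.9e-05) on the log2 scale. MLOC_14153 was at 77.2, 66.7 and 64.7 CPM and 254, 237 and 273 CPM, a change of 1.87 (SE 0.30, adjusted p = 0.00032). For both genes the ages did not overlap in AtCKX1, and in the WT replicate 3 was the highest of the 10DAG libraries, at 8.01, 10.3 and 24.6 CPM for MLOC_63698 and 166, 173 and 288 CPM for MLOC_14153. MLOC_34316, another RING-HC gene, had log2 fold changes of 2.27 in AtCKX1 and 2.30 in the WT. MLOC_67235, of the DA2 type that limits organ growth in Arabidopsis and grain width in rice, was at 22.6 to 25.1 CPM in AtCKX1 at 1DAG and 57.4 to 63.5 CPM at 10DAG, a log2 fold change of 1.36.

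Of 8 remaining ubiquitin genes 6 were higher in AtCKX1 at 10DAG. MLOC_15784, whose product joins a BTB and a TAZ domain as substrate adaptors of cullin ligases do, was at 0.779, 0.646 and 0.607 CPM at 1DAG and 5.29, 4.97 and 4.66 CPM at 10DAG, a log2 fold change of 2.87 (SE 0.53, adjusted p = 0.000877). The WT libraries at 10DAG were more scattered for this gene, at 5.24, 11.5 and 8.88 CPM. The RSL/RFA ligase genes MLOC_19130 and MLOC_59180 changed by 2.73 and 2.28, the Ariadne ligase gene MLOC_8240 by 1.79, the E2 gene MLOC_66347 by 1.49 and the F-box gene MLOC_62561 by 1.54 on the log2 scale. MLOC_57149, a gene for a Derlin, a membrane protein through which misfolded proteins leave the endoplasmic reticulum, was at 44.8, 40.5 and 45.2 CPM in AtCKX1 at 1DAG and 64.6, 65.7 and 70.8 CPM at 10DAG. These libraries did not overlap, but the log2 fold change of 0.62 (SE 0.10, adjusted p = 0.000365) was under the limit, as was that of the F-box gene MLOC_60789 at 0.98.

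Of 7 autophagy genes 4 were higher in AtCKX1 at 10DAG (57.1%, against 76.7% of the readable list), and the log2 fold changes of all 7 lay between 0.82 and 1.66. MLOC_74717, a gene for the cargo receptor NBR1, which ties ubiquitinated proteins to the autophagosome, was at 487, 539 and 553 CPM in AtCKX1 at 1DAG and at 1242, 1049.9 and 1223 CPM at 10DAG, a change of 1.15 (SE 0.17, adjusted p = 0.000232). MLOC_16732, a gene for a cargo receptor of the ATI type, known from Arabidopsis, was at 28.3, 24.5 and 26.5 CPM and then 83.1, 83.9 and 83.5 CPM, a change of 1.66 (SE 0.13, adjusted p = 3.61e-06). All AtCKX1 libraries at 10DAG lay within 1 CPM of each other for this gene. MLOC_74964, for ATG8, the ubiquitin-like protein that is anchored in the autophagosome membrane, changed by 1.12, and MLOC_3448, for ATG2, a carrier of lipids to that membrane, by 1.21. The genes for ATG6 (MLOC_71271, 0.98), ATG18 (MLOC_56913, 0.83) and ATG13 (MLOC_12860, 0.82) passed the adjusted p with log2 fold changes under the limit. For all 7 autophagy genes the AtCKX1 libraries at 10DAG lay above those at 1DAG without overlap, against 34.1% of all genes tested and 1221 of 1334 genes of the readable list.

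**Figure D2:**
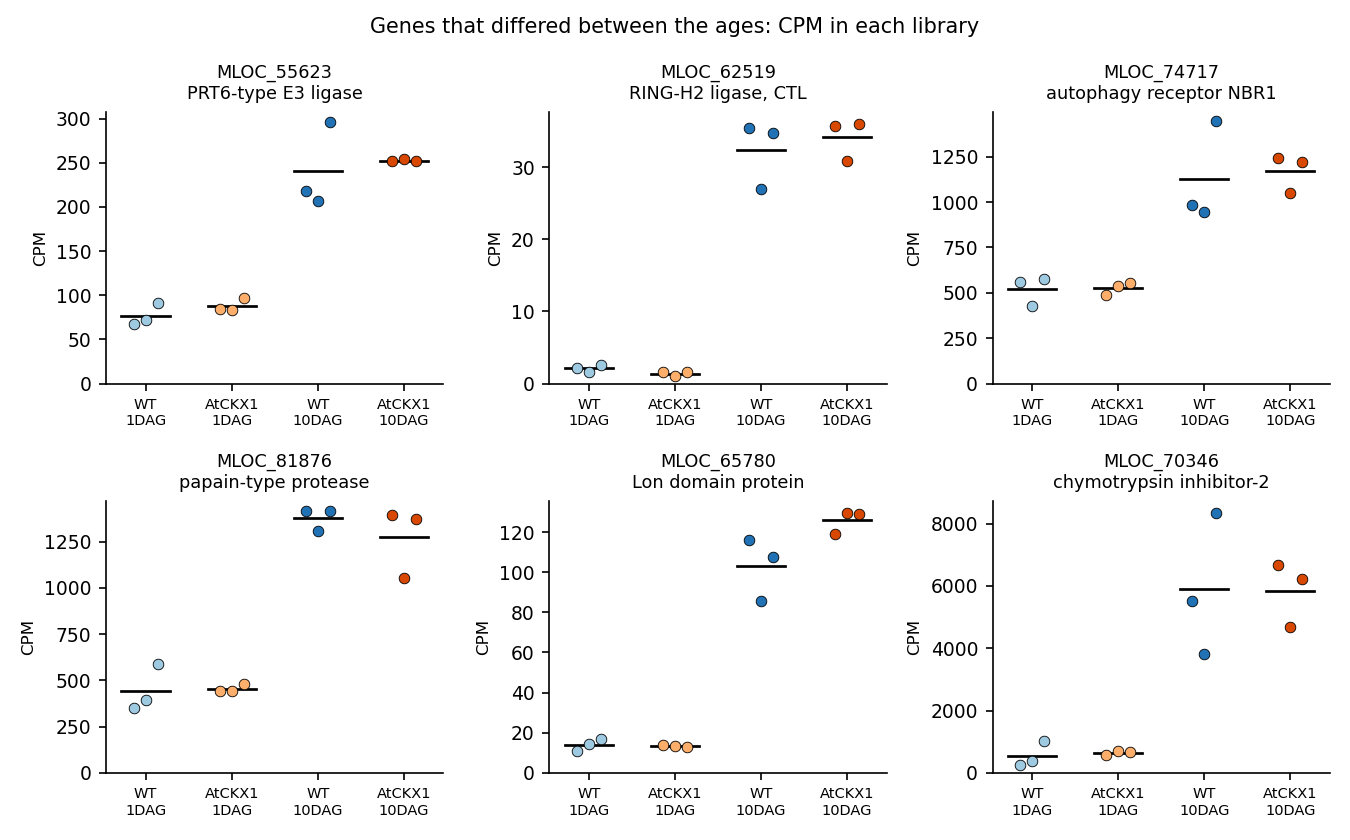
CPM (vertical axis, starting at 0) of 6 genes in the 12 libraries, by group. Points are libraries in the order of replicates 1, 2 and 3, and bars are group means. In each panel every 10DAG library lies above every 1DAG library in both genotypes.

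Among the 40 peptidase genes tested 31 were higher in AtCKX1 at 10DAG (77.5%), with a median log2 fold change of 2.02. The share was near the 76.7% of the readable list, and 15.8% of all genes tested were higher. All 3 cysteine peptidase genes were among the 31. MLOC_25678, of the papain class, was at 0.331, 0.0431 and 0.243 CPM at 1DAG and 9.0, 7.14 and 15.0 CPM at 10DAG in AtCKX1, a log2 fold change of 5.66 (SE 0.67, adjusted p = 4.97e-05). In the WT it was at 1.32, 0.316 and 0.355 CPM and 7.42, 9.48 and 7.64 CPM, with replicate 1 the highest at 1DAG. The other papain-class gene, MLOC_81876, was at 439.8, 442 and 483 CPM in AtCKX1 at 1DAG and 1396, 1051 and 1369.7 CPM at 10DAG, a log2 fold change of 1.48 (SE 0.18, adjusted p = 5.9e-05). Its WT libraries spanned 351 to 586 CPM and 1306 to 1417 CPM, so the genotypes overlapped at both ages. MLOC_59407, for a vacuolar processing enzyme, a legumain that cuts after asparagine and matures other vacuolar proteins, was at 136, 188 and 168 CPM and 456, 376 and 454 CPM in AtCKX1, a log2 fold change of 1.39. At 10DAG its AtCKX1 libraries lay above all WT libraries, which were at 288, 291 and 341 CPM, and the genotype difference of 0.48 (SE 0.19, adjusted p = 0.296) did not pass the test.

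Serine peptidase genes were higher at 10DAG in AtCKX1 in 11 of 12 cases (91.7%, against 76.7% of the readable list). MLOC_14045, of the S28 class that releases residues after proline, was near 0 at 1DAG and at 0.494, 0.399 and 0.158 CPM at 10DAG, with 2 reads over the AtCKX1 1DAG libraries and 48 over those at 10DAG. The ratio of these reads was 23.5, with a 95% counting interval of 6.16 to 200 that covers counting error only. MLOC_65780, with a domain of the Lon protease, which degrades damaged proteins in organelles, was at 13.9, 13.1 and 12.7 CPM at 1DAG and 119, 129.7 and 129 CPM at 10DAG. Its log2 fold change of 3.25 (SE 0.17, adjusted p = 7.29e-07) had the smallest adjusted p among the 109 genes, shared with MLOC_62519 and the inhibitor gene MLOC_39668. MLOC_71249, described as ClpB1, a chaperone that pulls aggregates apart and is itself no peptidase, and placed in the ClpD category, was at 35.6, 33.4 and 39.6 CPM and 138, 76.2 and 108 CPM, a change of 1.57 (SE 0.25, adjusted p = 0.000305). Its replicate 2 at 10DAG was the lowest of that group but lay above all 1DAG libraries. The subtilase gene MLOC_13009 changed by 2.02 and the rhomboid gene MLOC_71572, whose class cuts proteins within membranes, by 2.20. Serine carboxypeptidase-like genes, a family in which some Arabidopsis members act as acyltransferases, were higher in 6 of 7 cases, from 1.08 for MLOC_36824 to 3.48 for MLOC_66029.

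The pepsin-like aspartic peptidases were the largest peptidase class. Of the 18 tested, 12 were higher in AtCKX1 at 10DAG (66.7%, against 76.7% of the readable list), with a median log2 fold change of 2.12. MLOC_69013 was at 0.213, 0.129 and 0.291 CPM at 1DAG and 3.37, 7.30 and 5.42 CPM at 10DAG, a change of 4.66 (SE 0.67, adjusted p = 0.000161). MLOC_77289 had the largest counts of the class and was at 265, 294 and 280.1 CPM and 637, 564 and 667 CPM, a change of 1.15 (SE 0.16, adjusted p = 0.000121). For both genes the ages did not overlap in AtCKX1, and the fold of MLOC_77289 was just past the limit. In this class 2 genes are described as xylanase inhibitors, proteins that in wheat share the pepsin fold and block microbial xylanases. The gene MLOC_26558 was at 56.1, 56.3 and 75.4 CPM in AtCKX1 at 1DAG and 546, 437 and 617 CPM at 10DAG, a log2 fold change of 3.09 (SE 0.22, adjusted p = 2.19e-06). All 3 of its WT libraries at 10DAG were above those of AtCKX1, at 640.1, 862 and 799.8 CPM, and the genotype difference of -0.53 (SE 0.20, adjusted p = 0.269) did not pass the test. The other, MLOC_43794, changed by 2.89 in AtCKX1. The 6 genes not called were MLOC_7044, MLOC_66743, MLOC_63490, MLOC_7490, MLOC_15283 and MLOC_13635, with log2 fold changes from 0.25 to 2.23.

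Of 7 threonine and metallopeptidase genes 5 were higher in AtCKX1 at 10DAG, all 3 matrixins, which are zinc peptidases, among them. MLOC_6354, a matrixin gene, was at 0.236, 0.129 and 0.0728 CPM at 1DAG and 1.82, 2.21 and 1.71 CPM at 10DAG, a log2 fold change of 3.69 (SE 0.60, adjusted p = 0.000397). The matrixin genes MLOC_15950 and MLOC_40064 changed by 2.48 and 1.37. MLOC_9817, for gamma-glutamyl transpeptidase, which takes glutathione apart, changed by 2.33, and the leucyl aminopeptidase gene MLOC_75668 by 1.87. MLOC_66888, a carboxypeptidase gene of the M28 class, was at 24.5, 25.7 and 33.4 CPM and 47.5, 38.7 and 40.6 CPM. The ages did not overlap, and its log2 fold change of 0.60 (SE 0.17, adjusted p = 0.0113) was under the limit.

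Protease inhibitor genes were higher at 10DAG in AtCKX1 in 8 of 11 cases (72.7%, against 76.7% of the readable list), and this group held the largest counts of all. MLOC_70346, for chymotrypsin inhibitor-2, a small inhibitor of the PR6 family well known from barley grain, was at 558, 698 and 668 CPM in AtCKX1 at 1DAG and at 6676, 4667 and 6216 CPM at 10DAG. In the WT it was at 263, 368 and 1028 CPM and 5532, 3800.0 and 8334 CPM, with replicate 3 the highest at each age. The log2 fold change in AtCKX1 was 3.19 (SE 0.47, adjusted p = 0.000193), and the genotypes overlapped at both ages. Of the summed CPM of all 11 inhibitor genes, 7796 to 9674 in the AtCKX1 libraries at 10DAG, MLOC_70346 thus gave the larger part. MLOC_19118, a Bowman-Birk inhibitor gene, was at 4.89, 1.25 and 3.23 CPM at 1DAG and 61.4, 70.3 and 93.4 CPM at 10DAG in AtCKX1, a change of 4.59 (SE 0.61, adjusted p = 9.95e-05). Another Bowman-Birk gene, MLOC_39668, changed by 4.09 (SE 0.20, adjusted p = 7.29e-07), and MLOC_5646 by 1.86. The fourth, MLOC_62055, was at 0.354, 0.215 and 0.243 CPM and 0.292, 0.818 and 1.52 CPM, so that the ages overlapped (adjusted p = 0.0989). Of 5 chymotrypsin inhibitor-2 genes 4 were higher, and the exception, MLOC_2643, was at 0.81 with an adjusted p of 0.0193. These inhibitor genes form families of similar sequences, and the counting left out reads that aligned to more than 1 place.

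The 5 genes with the smallest age difference in AtCKX1 came from different roles. MLOC_38407, for a serpin, an inhibitor that traps its protease, was at 0.189, 0.323 and 0.680 CPM at 1DAG and 0.337, 0.339 and 0.552 CPM at 10DAG, a log2 fold change of 0.04 (SE 0.51, adjusted p = 0.955). The serine carboxypeptidase-like gene MLOC_67325 was at 0.402, 0.409 and 0.218 CPM and 0.494, 0.399 and 0.263 CPM, with 0.17 (SE 0.54, adjusted p = 0.811). The aspartyl protease gene MLOC_13635, read at higher depth, was at 50.2, 32.9 and 43.1 CPM and 54.5, 41.5 and 53.9 CPM, with 0.25 (SE 0.32, adjusted p = 0.538). In each of these the ages overlapped, as they did for MLOC_2019. MLOC_44418, for an M28 peptidase of the endoplasmic reticulum, was at 10.8, 2.91 and 4.98 CPM at 1DAG and 17.4, 5.33 and 5.13 CPM at 10DAG, with 0.57 (SE 0.69, adjusted p = 0.505). Replicate 1 was the highest AtCKX1 library at both ages for this gene. Its WT libraries were at 0.325, 0.803 and 2.69 CPM and 6.76, 9.72 and 11.1 CPM and did not overlap. MLOC_697, which did not pass the filter, had 1 read in each AtCKX1 library at 1DAG and 4, 2 and 0 at 10DAG, a ratio of 1.96 with a 95% counting interval of 0.418 to 12.1. In the WT it had 0 reads at 1DAG and 13, 12 and 5 at 10DAG, and the 95% counting interval of that ratio starts at 7.67.

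Set side by side, the log2 fold changes between the ages ran from 1.02 to 7.37 in the WT and from 0.04 to 5.79 in AtCKX1. The WT estimate was the larger one for 74 of the 109 genes and the AtCKX1 estimate for 35, and the estimates lay within 0.5 of each other on the log2 scale for 64. Without WT 1DAG replicate 1 and WT 10DAG replicate 2 together, the AtCKX1 estimate was the larger one for 47 of 109 genes. The median difference, AtCKX1 minus WT, was then -0.10, against -0.24 with all libraries. Since the genes were chosen as high in the WT, a larger WT estimate is favoured by the choice. Pearson's r of the log2 fold changes across the 109 genes was 0.78 and Spearman's rho 0.72, which describes genes that share libraries and are not independent. The test of the difference between the age effects called 0 of 109 genes, by edgeR and by DESeq2. At an unadjusted p under 0.05 the effect in AtCKX1 was larger for 4 genes and smaller for 13, 3.67% and 11.9% of the 109. Of all genes tested 4.14% and 3.04% had a larger and a smaller effect, and of the readable list 2.47% and 7.72%. The choice of the genes favours smaller effects. Among all genes tested 0.406% had a larger and 0.0792% a smaller age effect in AtCKX1. With all libraries the median of this difference was -0.24 over the 109 genes, -0.18 over the tested genes of the readable list and -0.03 over all genes tested. At the ends of its range stood -2.36 (SE 1.54, adjusted p = 0.83) for the ATL gene MLOC_66205, which had 1 read over the WT libraries at 1DAG, and 2.07 (SE 0.84, adjusted p = 0.613) for the papain-class gene MLOC_25678. An age effect that differed between the genotypes was not detectable for any of these genes at an adjusted p of 0.05.

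**Figure D3:**
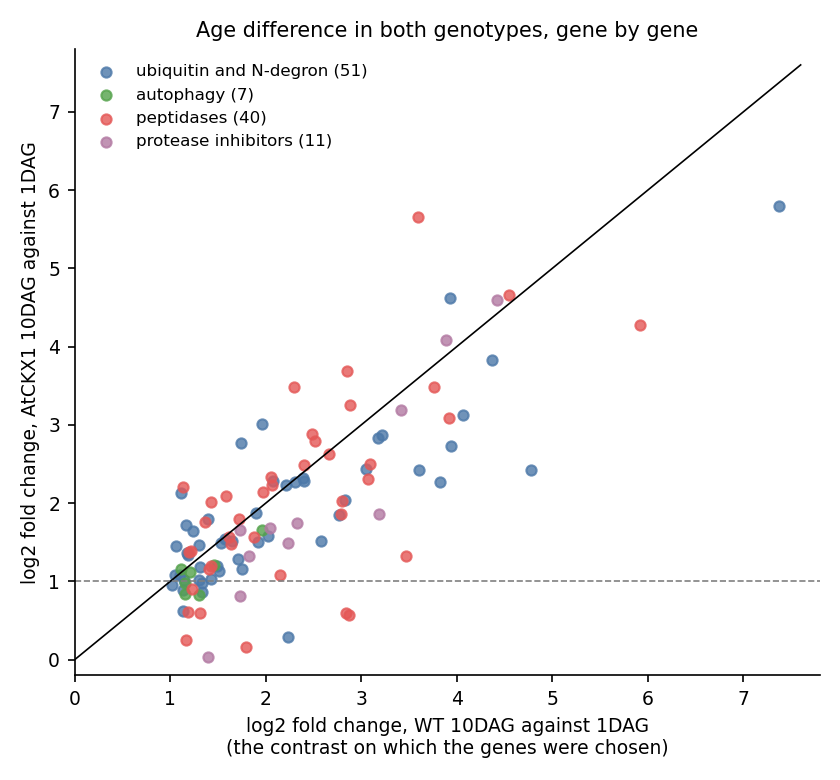
Log2 fold change between 10DAG and 1DAG in the WT (horizontal axis, the contrast on which the genes were chosen) and in AtCKX1 (vertical axis), 1 point per gene for 109 genes coloured by role. The solid line marks equal changes and the dashed line the fold limit of 1. The choice puts every point to the right of 1, and 74 points lie below the solid line.

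At 1DAG the AtCKX1 plants differed from the WT in few of these genes. Of 109 genes 1 was higher, against 0.163% of all genes tested, and 1 was lower, against 0.341%. At an unadjusted p under 0.05 there were 11 higher and 13 lower genes, 10.1% and 11.9% of the 109, against 5.79% and 12.1% of all genes tested. The readable list had 11.9% higher and 11.1% lower. Of the protein homeostasis genes DESeq2 called 3 higher and 2 lower, against 143 and 594 of all 21508 genes it tested. The median log2 difference over the 109 genes was 0.07 (0.03 over all genes tested). The libraries of the genotypes did not overlap for 11 genes with AtCKX1 higher and 9 with AtCKX1 lower, against 10.1% and 11.3% of all genes tested. The higher gene was the serine carboxypeptidase-like gene MLOC_36824. Its WT libraries were at 0.183, 0.438 and 0.279 CPM and its AtCKX1 libraries at 1.70, 1.53 and 1.55 CPM, with a log2 difference of 2.41 (SE 0.37, adjusted p = 0.0144). The genotypes did not overlap at 1DAG, nor at 10DAG, where the WT was at 0.942, 1.23 and 1.84 CPM and AtCKX1 at 4.17, 2.69 and 3.29 CPM with a difference of 1.34 (SE 0.34, adjusted p = 0.081). The genes were chosen for low WT levels at 1DAG, which favours higher values in AtCKX1 at that age. The call was lost without AtCKX1 1DAG replicate 1, 2 or 3, with adjusted p of 0.0596, 0.0525 and 0.0567. Without both WT 1DAG replicate 1 and WT 10DAG replicate 2, 0 genes were called in either direction at 1DAG.

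The lower gene, against the direction that the choice favours, was the Bowman-Birk inhibitor gene MLOC_39668. At 1DAG it was at 17.2, 16.6 and 14.3 CPM in the WT and 7.91, 6.44 and 9.25 CPM in AtCKX1, a difference of -1.03 (SE 0.18, adjusted p = 0.0317) on the log2 scale. At 10DAG it was at 252, 233 and 224 CPM in the WT and 125, 106 and 171 CPM in AtCKX1, a difference of -0.82 (SE 0.17, adjusted p = 0.0384) that passed the adjusted p but not the fold limit. All AtCKX1 libraries were thus below all WT libraries of the same age. The log2 fold change between the ages was 3.88 in the WT and 4.09 in AtCKX1. At 1DAG the call held when WT 1DAG replicate 3 or AtCKX1 10DAG replicate 2 or 3 was left out, and without any of the other 9 libraries the adjusted p was 0.0501 to 0.135.

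**Figure D4:**
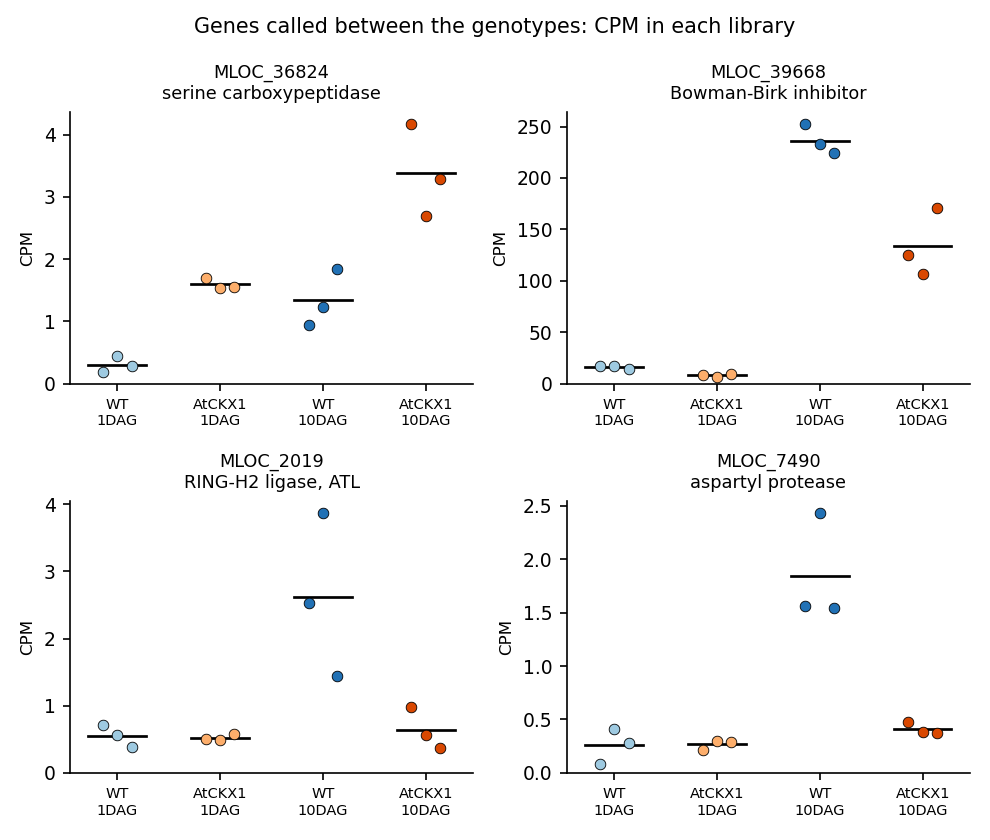
CPM (vertical axis, starting at 0) of the 4 genes called between the genotypes, in the 12 libraries by group. Points are libraries in the order of replicates 1, 2 and 3, and bars are group means. MLOC_36824 is higher and MLOC_39668 lower in AtCKX1 at both ages, while MLOC_2019 and MLOC_7490 separate the genotypes at 10DAG.

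At 10DAG edgeR called 0 of the 109 genes higher and 2 lower in AtCKX1 than in the WT, while 0.653% and 0.584% of all genes tested were higher and lower. DESeq2 called 2 higher and 6 lower, against 246 and 290 of all 21508 genes it tested. At an unadjusted p under 0.05 there were 6 higher and 21 lower genes, 5.50% and 19.3% of the 109, against 6.27% and 7.42% of all genes tested. The readable list, chosen in the same way, had 6.45% higher and 14.5% lower. The WT libraries of this age were those in which the genes had been chosen as high, so lower values in AtCKX1 are favoured by the choice. The median log2 difference was -0.23 for the 109 genes, -0.14 for the tested genes of the readable list and -0.01 for all genes. The genotypes did not overlap with AtCKX1 lower for 25 genes, against 12.1% of all genes tested, and with AtCKX1 higher for 9, against 11.6%. The ATL gene MLOC_2019 was at 2.52, 3.88 and 1.44 CPM in the WT and 0.987, 0.559 and 0.368 CPM in AtCKX1, a difference of -2.02 (SE 0.45, adjusted p = 0.0472). At 1DAG it was at 0.711, 0.559 and 0.380 CPM in the WT and 0.496, 0.496 and 0.583 CPM in AtCKX1, so the genotypes overlapped then, and AtCKX1 had a log2 fold change between the ages of 0.29 (SE 0.45, adjusted p = 0.618). The aspartyl protease gene MLOC_7490 was at 1.56, 2.43 and 1.54 CPM in the WT and 0.471, 0.379 and 0.368 CPM in AtCKX1 at 10DAG, a difference of -2.17 (SE 0.46, adjusted p = 0.0396). At 1DAG its libraries overlapped, at 0.0812, 0.413 and 0.279 CPM in the WT and 0.213, 0.302 and 0.291 CPM in AtCKX1.

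Both calls at 10DAG lay near the limit, and each was lost when any 1 of 9 libraries was left out. Among these were libraries outside the comparison. Without AtCKX1 1DAG replicate 1 the log2 differences were -2.03 for MLOC_2019 and -2.18 for MLOC_7490 (adjusted p = 0.0806 and 0.0661). Without WT 1DAG replicate 1 and WT 10DAG replicate 2 together, MLOC_7490 was called (adjusted p = 0.0162). Without WT 10DAG replicate 2, the highest WT library for both genes, the adjusted p was 0.186 for MLOC_2019 and 0.15 for MLOC_7490, with log2 differences of -1.62 and -1.92. MLOC_2019 was called when WT 1DAG replicate 1 or 3 or WT 10DAG replicate 3 was left out, and MLOC_7490 when any WT 1DAG library was left out. Without each of the other 9 libraries the adjusted p was 0.0568 to 0.186 for MLOC_2019 and 0.0639 to 0.15 for MLOC_7490. The difference of the age effects for MLOC_2019 was -1.95 (SE 0.64, adjusted p = 0.397) and for MLOC_7490 -2.25 (SE 0.68, adjusted p = 0.328), and neither passed the test.

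**Figure D5:**
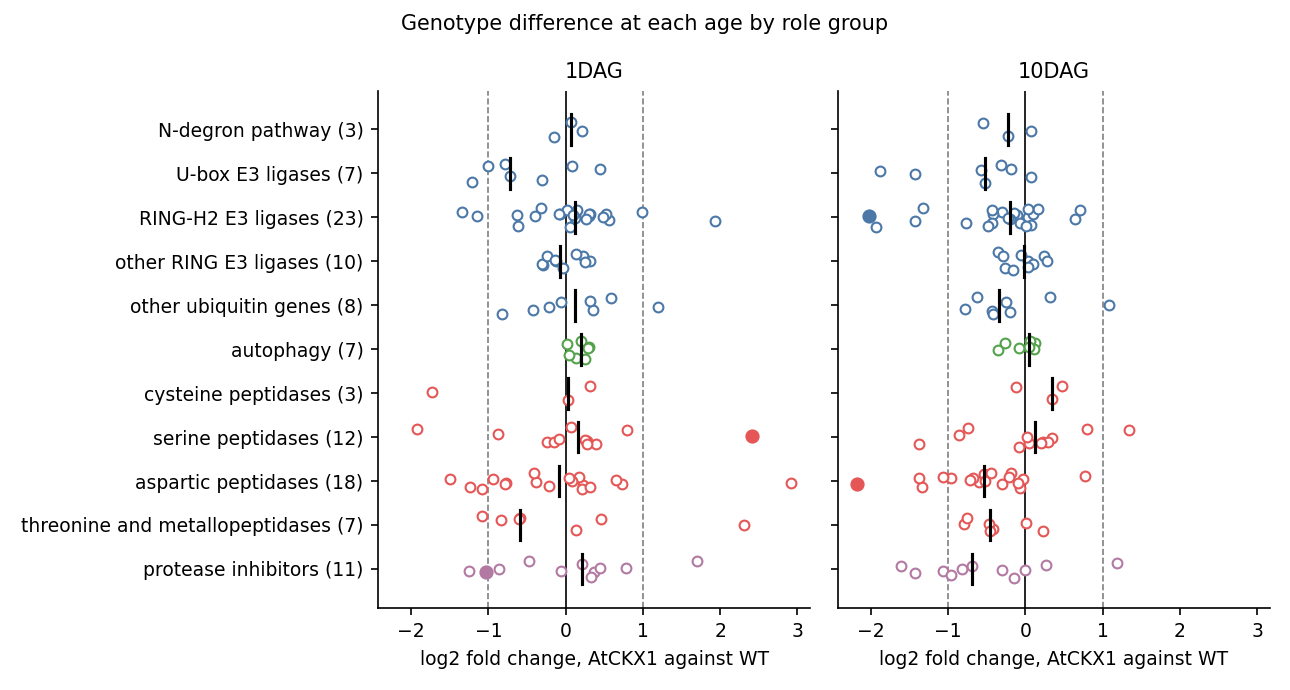
Log2 difference between AtCKX1 and WT at 1DAG (left) and 10DAG (right) for the 109 tested genes, by role with the number of genes in parentheses. Filled points are called genes, open points genes not called, black bars group medians and dashed lines the fold limits. At 1DAG 2 points are filled and at 10DAG 2, both below 0.

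By role, the medians of the genotype difference at 10DAG ran from -0.69 for the protease inhibitors and -0.53 for the aspartic peptidases to 0.34 for the cysteine peptidases on the log2 scale. The aspartic peptidases had 1 of 18 estimates above 0 at 10DAG and 9 of 18 at 1DAG, against 503 and 726 of 1334 for the readable list. At 10DAG their median deviation from each gene's mean log2 CPM was 1.13, 1.80 and 0.87 in the WT libraries. In the AtCKX1 libraries it was 0.71, 0.63 and 1.01, so the genotypes overlapped. The ATL ligases had a median of -0.42 at 10DAG, with 3 of 17 above 0, and 0.12 at 1DAG. Few estimates at 10DAG were above 0 in other roles too: 1 of 7 U-box ligases, 2 of 8 other ubiquitin genes, 2 of 7 threonine and metallopeptidases and 2 of 11 inhibitors. More were above 0 among the serine (8 of 12) and cysteine (2 of 3) peptidases, the other RING ligases (5 of 10) and autophagy (4 of 7). The autophagy genes had medians of 0.20 at 1DAG and 0.04 at 10DAG. These medians and counts use the WT libraries of the choice and no test was made of them. Without WT 10DAG replicate 2 the median at 10DAG over all 109 genes was -0.14, against -0.23 with it. Without AtCKX1 10DAG replicate 2 the median was -0.16 over the 110 genes then tested. Leaving out 1 library of that age at a time gave medians from -0.29, without AtCKX1 10DAG replicate 3, to -0.14.

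Some genes that were not called separated the genotypes in every library at 1 or both ages. MLOC_81846, 1 of the chymotrypsin inhibitor-2 genes, was at 39.5, 94.9 and 171 CPM in the WT and 284, 305 and 399 CPM in AtCKX1 at 1DAG, and at 431, 388 and 263 CPM and 979.7, 783 and 709 CPM at 10DAG. AtCKX1 was higher at both ages without overlap, by 1.69 (SE 0.41, adjusted p = 0.125) and 1.19 (SE 0.40, adjusted p = 0.194) on the log2 scale, which edgeR did not call and DESeq2 did. The RSL/RFA ligase gene MLOC_59180 was at 0.697, 1.20 and 0.732 CPM in the WT and 1.82, 1.48 and 2.29 CPM in AtCKX1 at 10DAG, also without overlap and not called (adjusted p = 0.171). MLOC_66029, a serine carboxypeptidase-like gene, was lower in AtCKX1 at 1DAG without overlap, at 0.0945, 0.0646 and 0.0486 CPM against 0.264, 0.268 and 0.279 CPM in the WT, with a difference of -1.92 (SE 0.42, adjusted p = 0.0839). MLOC_6671, of the same family, passed the adjusted p at 8.20, 7.37 and 9.64 CPM in the WT and 15.1, 13.1 and 15.7 CPM in AtCKX1 at 10DAG, with a difference of 0.80 (SE 0.18, adjusted p = 0.0467) under the fold limit. These genes were chosen after their values were seen.

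Single libraries differed in how the 109 genes lay within their group. WT 10DAG replicate 2 was the highest of its group for 53 of the 109 genes, against 34.6% of all genes tested, and AtCKX1 10DAG replicate 2 was the lowest of its group for 65, against 34.8%. At 1DAG, AtCKX1 replicate 2 was the lowest of its group for 62 genes, against 39.2%, and WT replicate 3 the highest for 57, against 34.9%. AtCKX1 10DAG replicate 3 was the highest for 56, against 34.3%, while WT 1DAG replicate 1 was the lowest for 54, near its share of 46.6% over all genes. For the summed aspartic peptidases WT 10DAG replicate 2 had 2585 CPM and the other WT libraries of that age 2089 and 2398, while for the summed inhibitors it was the lowest of its group at 6452 CPM. The larger part of that inhibitor sum was the single gene MLOC_70346, at 3800 CPM. By the median deviation over the inhibitor genes WT 10DAG replicate 2 was the highest of its group, at 1.51 against 1.11 and 1.13. Without WT 1DAG replicate 1 and WT 10DAG replicate 2, 91 of 109 genes were higher at 10DAG in AtCKX1 and 1 gene, MLOC_7490, was lower in AtCKX1 than in the WT at 10DAG.

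The readable list held 43 further genes whose descriptions name a peptidase, a protease or a ubiquitin enzyme but whose category is not protein homeostasis. In AtCKX1 34 of the 43 were higher at 10DAG (79.1%) and 0 lower, against 15.8% and 12.2% of all genes tested, with a median log2 fold change of 1.20. The share is near the 76.7% of the readable list, on which these genes too were chosen as higher in the WT. Between the genotypes 0 of the 43 were called at either age, with 7 at an unadjusted p under 0.05 at 1DAG (16.3%, against 17.9% of all genes tested) and 5 at 10DAG (11.6%, against 13.7%). DESeq2 called 1 of them lower at 10DAG and 2 with a smaller age effect in AtCKX1, against 290 of 21508 and 80 of 20608 genes.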

How the data were processed

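Reads were trimmed by the authors, mapped to the cv. Morex genome (TopHat) and assigned to genes by strand (HTSeq 0.6.0). The deposited values are raw counts per gene, and rows that name no gene were left out: 22.1 to 24.4% of the reads lay outside genes and 7.02 to 10.3% were not unique. The analysis used edgeR 4.0.16 under R 4.3.3. Low genes were removed by filterByExpr, libraries were scaled by TMM, and 1 robust quasi-likelihood fit of all 12 libraries with 4 group means gave every comparison, with p-values adjusted by Benjamini-Hochberg across all tested genes. Each standard error is approximate, being the size of the log2 change over the root of its F statistic. Ratios of reads carry exact 95% intervals that cover counting error only. The method was tested on simulated data.

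The functional categories were read from the study's list, without its fold changes. The genes named are, in each role, the gene with the largest rise in AtCKX1 and that with the highest mean CPM, the genes called between the genotypes, the 5 genes with the smallest rise and the gene that was not tested. Other genes were named after their values were seen. The members and lists were chosen with earlier results of these data known. The alternatives were DESeq2 1.42.0, other scalings, filters, fold limits and sets of libraries, the replicate number as a block, and each library left out in turn.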

Additional observations from a re-analysis of the deposited data

How the results depend on the processing

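In AtCKX1 0 genes were lower at 10DAG under all alternatives run, and 70 to 99 were higher, except that glmTreat against a 2-fold change left 53. Leaving out 1 library at a time gave 77 to 90 higher genes, the fewest without AtCKX1 1DAG replicate 2. The stricter filter of at least 10 counts in every library left 83 genes to test.

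The counts between the genotypes were small and moved under most alternatives, and the cause was not tested. At 1DAG, where 1 gene was higher and 1 lower, DESeq2 called 3 higher and 2 lower, and the stricter filter, glmTreat, the fit of only the 6 libraries compared and the fit without WT 1DAG replicate 1 and WT 10DAG replicate 2 called 0 higher and 0 lower. At 10DAG, where 0 were higher and 2 lower, DESeq2 called 2 higher and 6 lower, the 6 libraries alone called 1 higher and 1 lower, and dropping the fold limit called 1 higher and 3 lower. Upper-quartile factors, library totals, the stricter filter and the fit without both of those WT libraries called 1 lower, and glmTreat called 0 lower. Leaving out 1 library at a time gave 0 to 2 higher and 0 to 1 lower genes at 1DAG, and 0 to 2 higher and 0 to 3 lower genes at 10DAG. The difference of the age effects called 0 genes in either direction under all alternatives run.

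The labels give replicates of different groups a shared number and no statement of pairing. Of 18 pairs with the same number, 2 had a correlation of their deviations over 0.1, and the range was -0.339 to 0.364. With 3 libraries in a group this cannot settle whether samples of the same number were raised together. The main fit did not pair them. With the replicate number as a block, 87 genes were higher at 10DAG in AtCKX1, 0 higher and 0 lower between the genotypes at 1DAG, and 0 lower at 10DAG. Depth limits the genes at few reads, such as MLOC_697 with 6 reads over the AtCKX1 libraries at 10DAG.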
